A study of Homo sapiens with 6 samples.

Results

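Genes of the primary cilium and of the Hedgehog pathway were followed in EndoC-βH1 cells, a human pancreatic beta cell line (EndoCBH1 in the labels), after siRNA against the homeobox transcription factor MNX1. The group treated with siRNA against MNX1 (siMNX1, a knock-down by its label) and the group given a non-targeting siRNA (siNT, genotype WT in the labels) held 3 libraries each, and all 6 came from the same cell line. The labels give neither the siRNA sequences, the time after transfection, nor whether the replicates were separate cultures, so the p-values cover only library-to-library spread, which may be technical. The set was defined by gene name as 56 genes, of which 54 were among the 16792 genes tested. SMO and GLI3 were not analysed here. The members were sorted by role into 13 subunits of the intraflagellar transport complex IFT-B, 6 subunits of IFT-A, 5 motor subunits, 8 BBSome subunits, 5 BBSome chaperones and regulators, the GTPase gene ARL3, 11 transition zone genes and 5 Hedgehog genes.

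The primary cilium is a single antenna on the surface of most cells, beta cells included. Kinesin-2 carries IFT-B trains to the tip, dynein-2 and IFT-A bring them back, the BBSome moves membrane proteins out, and the transition zone at the base acts as a gate. Vertebrate Hedgehog signalling runs through this compartment. Its receptor PTCH1 leaves the cilium when it binds ligand, and the GLI factors are processed there. In the developing pancreas Hedgehog signalling is normally held low.

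Levels are the authors' normalized counts, deposited as a non-negative signal per gene, and their totals lay between 18406479 and 18704645 per library. The targeted transcript, MNX1, had 1885.1, 1707.9 and 1751.3 normalized counts in siMNX1 replicates 1 to 3 and 2039.3, 2032.9 and 1987.8 in siNT replicates 1 to 3. All siMNX1 libraries lay below all siNT libraries, yet at a log2 fold change of -0.18 MNX1 missed the threshold (limma, adjusted p = 0.116). Over the 13 alternative settings its adjusted p was 0.0985 to 0.262. All 12 beta cell markers on the list were measured, with a summed level of 371522 to 386037 in siMNX1 libraries and 301209 to 311853 in siNT libraries. Limma called 3 of them higher (CHGA, MAFA and PCSK1, 25.0%, where 3.32% of all genes were called) and 0 lower. The MAFA call ended without siMNX1 replicate 1 (adjusted p = 0.0549), siNT replicate 2 (0.0604) or siNT replicate 3 (0.0699), and the PCSK1 call without siMNX1 replicate 1 (0.0744) or siNT replicates 1 (0.0591), 2 (0.0609) or 3 (0.108). Of 18 markers of mesenchymal, endothelial, blood and exocrine cells 4 were measured (COL1A1, PDGFRB, CPA1 and KRT19), with 0 calls by limma and 1 higher at an unadjusted p under 0.05, and the other 14 were not analysed here. The summed level of these 4 was 1930.9 to 2054.6 in siMNX1 libraries and 1782.2 to 1854.8 in siNT libraries. KRT19, the gene at an unadjusted p under 0.05 by limma, averaged 1366.5 in siMNX1 and 1199.1 in siNT libraries. In the same order CPA1 averaged 585.3 and 590.8, COL1A1 32.0 and 28.1, and PDGFRB 15.0 and 11.7. The part of either marker list in the results on the members was not tested. On the first principal component, with 29.36% of the variance, siMNX1 libraries lay at -23.42 to -18.12 and siNT libraries at 20.04 to 22.85. On the second, with 20.1% of the variance, siMNX1 replicates 1 and 2 lay at 29.4 and -31.7, and the other libraries lay between -2.66 and 2.40. In bulk libraries, fewer cells making an RNA and less RNA per cell cannot be told apart.

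Of the 54 measured members, 5 rose with MNX1 siRNA and 0 fell at an adjusted p of 0.05 (limma with a variance trend, Benjamini-Hochberg over all 16792 genes). They were the IFT-A gene WDR35, the BBSome gene BBS9, the BBSome regulator gene LZTFL1, the transition zone gene TMEM231 and the Hedgehog receptor gene PTCH1. The 5 genes made up 9.26% of the members, where 1.99% of all tested genes rose and 1.33% fell (3.32% in either direction). At an unadjusted p under 0.05, 11 members were higher (20.4%, where the share of all genes was 9.81%) and 5 lower (9.26%, against 8.56%). In 14 members the lowest siMNX1 value exceeded the highest siNT value (25.9%, where all genes gave 12.0%), and in 5 the highest siMNX1 value lay under the lowest siNT value (9.26%, against 12.1%). The median log2 fold change was 0.07 over the members and -0.0004 over all genes. The log2 fold change was smaller than 0.2 in size for 36 of 54 members and for 11238 of the 16792 genes tested, much the same share.

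**Figure D1:**
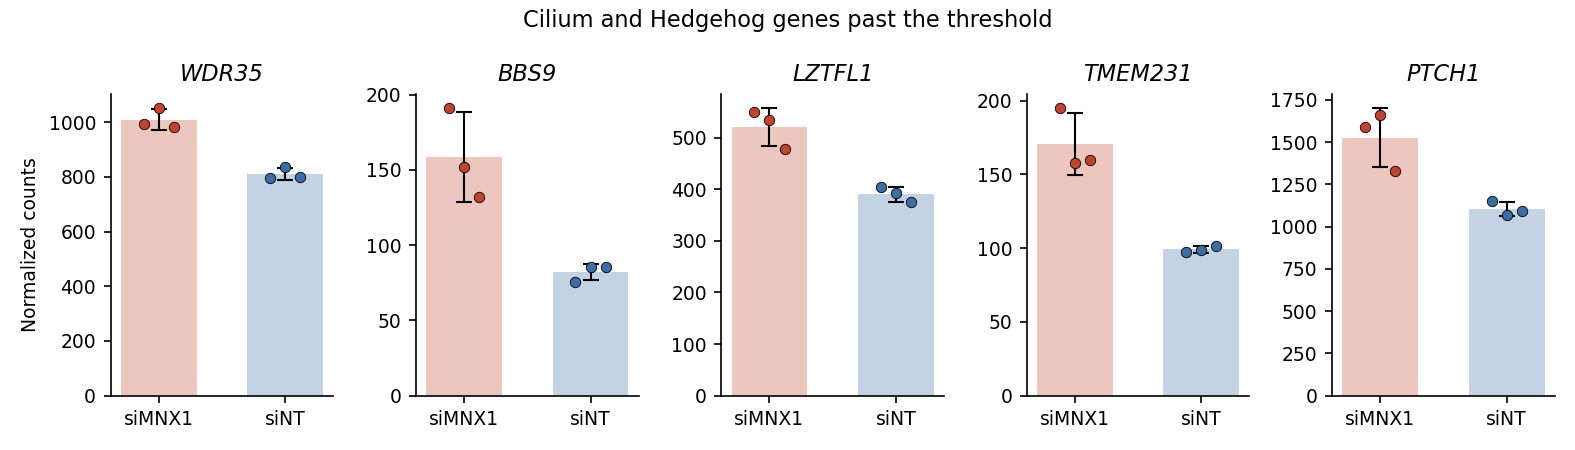
Normalized counts of the 5 members past the threshold in siMNX1 (red) and siNT (blue) libraries; points are libraries, bars are means and error bars are SD (n = 3 per group). In each panel all 3 siMNX1 points lie above all 3 siNT points, with the widest ratio of means for BBS9 (1.93) and the narrowest for WDR35 (1.25).

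**Figure D2:**
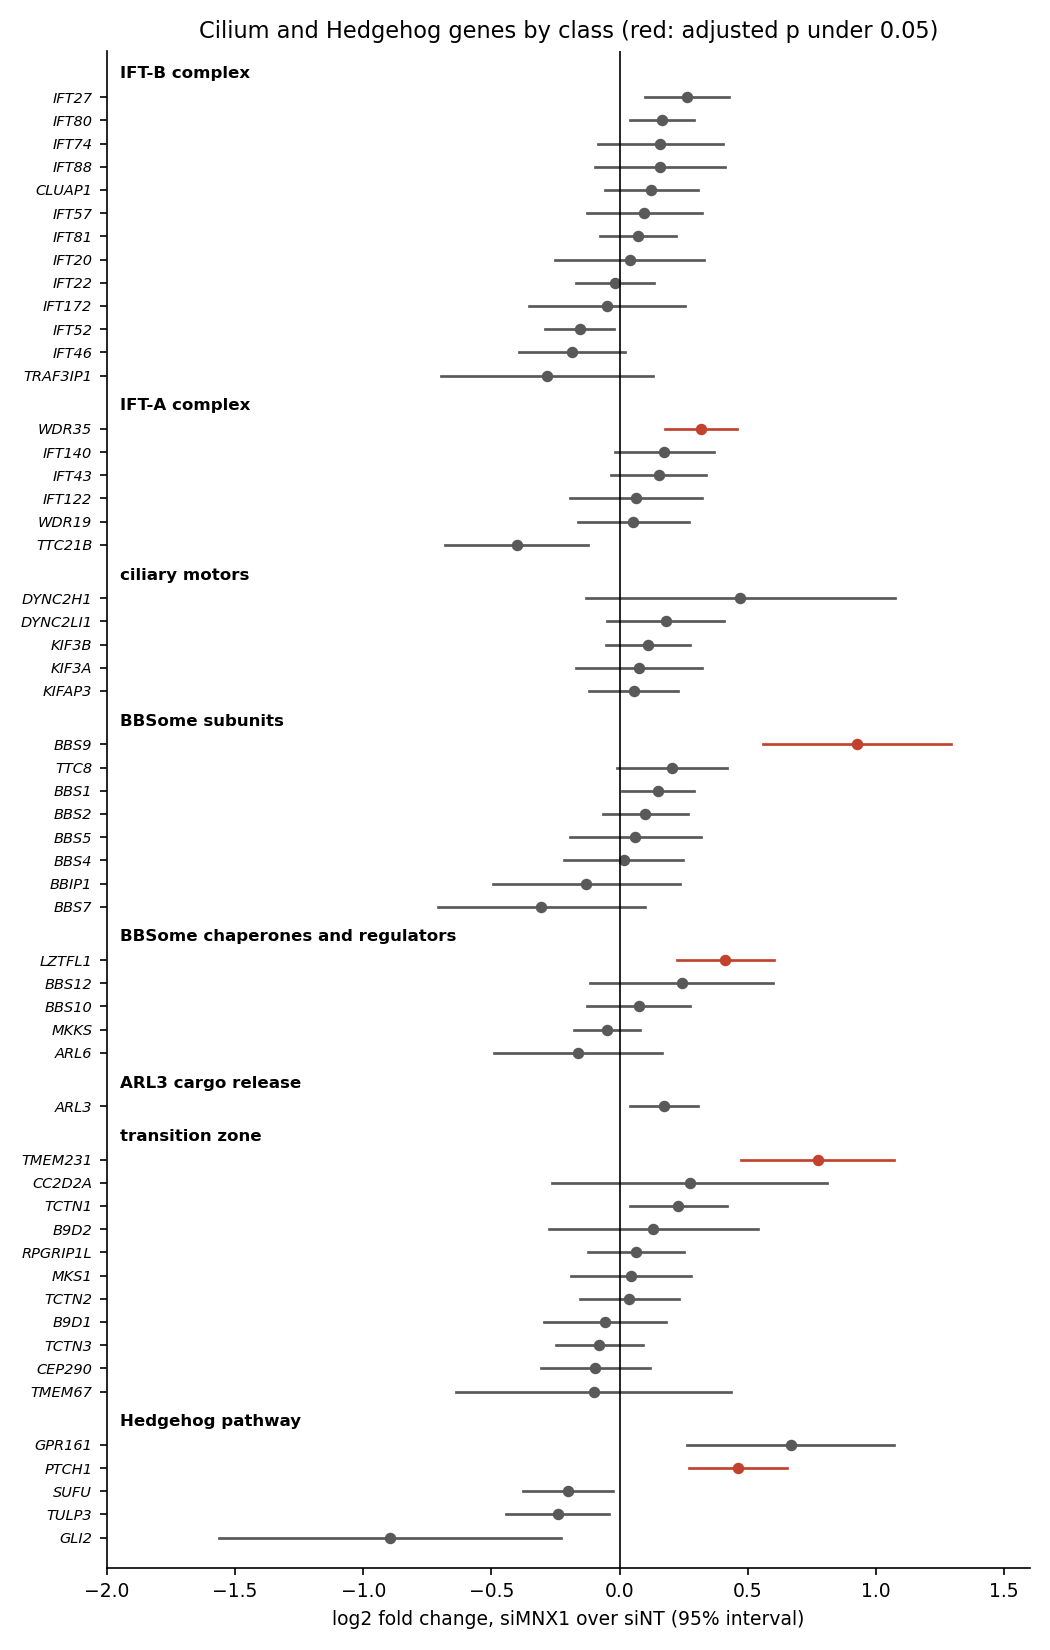
Log2 fold change (siMNX1 over siNT, horizontal axis) with its 95% interval for each of the 54 members, grouped by role and ordered by size; red marks an adjusted p under 0.05. The 5 red genes lie right of 0, and GLI2 has the lowest value, -0.90, with an interval of -1.56 to -0.23.

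These calls were close to the threshold, and most ended when 1 library was left out. Without siMNX1 replicate 1, siNT replicate 1, siNT replicate 2 or siNT replicate 3, 0 of 54 members passed, while 256, 270, 222 and 197 genes passed in the whole table. Without siMNX1 replicate 2, BBS9, TMEM231 and PTCH1 passed (3 members, with 436 genes in all), and without siMNX1 replicate 3, BBS9, LZTFL1, TMEM231 and PTCH1 passed (4 members, with 343 genes). The sizes moved less than the calls. Over the 6 sets of 5 libraries the log2 fold change was 0.29 to 0.34 for WDR35, 0.78 to 1.05 for BBS9, 0.37 to 0.47 for LZTFL1, 0.67 to 0.83 for TMEM231 and 0.40 to 0.56 for PTCH1. The limma adjusted p ranged from 0.0566 to 0.117 for WDR35, 0.0185 to 0.0644 for BBS9, 0.0356 to 0.134 for LZTFL1, 0.0266 to 0.0634 for TMEM231 and 0.00605 to 0.0966 for PTCH1.

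IFT-B, the train that carries tubulin and other cargo outward, gave 0 calls among 13 subunits, with 2 higher and 1 lower at an unadjusted p under 0.05 by limma and a median log2 fold change of 0.07. Members ran from -0.28 (TRAF3IP1) to 0.26 (IFT27). IFT27, a small GTPase-like subunit that helps the BBSome leave the cilium, had 722.9, 787.2 and 818.1 normalized counts in siMNX1 libraries, against 663.2, 652.9 and 621.2 in siNT libraries. The groups did not overlap, and the log2 fold change of 0.26 did not pass (limma, adjusted p = 0.0882). IFT80, a peripheral IFT-B subunit linked to Jeune syndrome, had 2000.7, 2016.8 and 1995.9 in siMNX1 libraries and 1680.9, 1817.3 and 1869.0 in siNT libraries. Its groups did not overlap either, with a log2 fold change of 0.17 (limma, adjusted p = 0.156). IFT80 shares 27.2% of its exon bases in GENCODE 29 with AC079594.2 on the same strand, a row with 11.6 normalized counts in siMNX1 and 36.2 in siNT libraries on average, so reads of this pair are uncertain. IFT80 also shares 8.46% with SMC4 on the opposite strand, which averaged 6884.3 in siMNX1 and 6855.9 in siNT libraries.

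IFT52, a core IFT-B subunit, lay lower in siMNX1. It had 888.4, 903.8 and 910.2 normalized counts in siMNX1 libraries and 1012.0, 1034.3 and 965.7 in siNT libraries, and the groups did not overlap. Its log2 fold change was -0.16, short of the threshold (limma, adjusted p = 0.202). TRAF3IP1, which encodes the microtubule-binding subunit IFT54, had the widest spread of IFT-B within a group. It stood at 279.4 in siMNX1 replicate 1 and at 513.8 and 402.9 in replicates 2 and 3, against 434.4 to 497.9 in siNT libraries, so the groups overlapped. The remaining IFT-B genes, IFT20, IFT22, IFT46, IFT57, IFT74, IFT81, IFT88, IFT172 and CLUAP1, had log2 fold changes between -0.18 (IFT46) and 0.16 (IFT74). Among these 9 genes the groups were apart for IFT46, with 379.7 ± 19.3 in siMNX1 and 432.2 ± 36.6 in siNT (SD, n = 3 each), and for CLUAP1, with 582.5 ± 3.95 in siMNX1 and 535.6 ± 43.7 in siNT. IFT20 shares 11.2% of its exon bases with TMEM97 on the opposite strand. TMEM97 averaged 3114.4 in siMNX1 and 3069.8 in siNT libraries, so the IFT20 level is uncertain.

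IFT-A returns trains to the base and admits membrane cargo, and 1 of its 6 subunits rose. WDR35 (chromosome 2, 19910260 to 19990131, minus strand, GRCh38), also called IFT121, had 993.3, 1052.6 and 984.1 normalized counts in siMNX1 libraries, against 797.2, 834.7 and 798.1 in siNT libraries. The groups did not overlap, and the spread within each group was small beside the gap. The log2 fold change was 0.32 (SE 0.062, 95% interval 0.18 to 0.46, limma, adjusted p = 0.0266). TTC21B (IFT139), a subunit of the same complex, had 437.7, 553.4 and 462.1 in siMNX1 libraries and 634.3, 548.8 and 742.0 in siNT libraries. The groups overlapped through siMNX1 replicate 2 and siNT replicate 2, and the log2 fold change of -0.40 did not pass (limma, adjusted p = 0.121). IFT43, IFT122, IFT140 and WDR19 had log2 fold changes of 0.05 to 0.17, and limma called 0 of these 4 genes, with 0 at an unadjusted p under 0.05.

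The 5 motor genes gave 0 calls (0 also at an unadjusted p under 0.05 by limma), with log2 fold changes of 0.05 to 0.47. The kinesin-2 gene KIF3B stood highest of all members per length, at 1049.2 normalized counts per kb of exon in siMNX1 and 970.2 in siNT libraries. KIF3B had 6403.1 ± 668.6 normalized counts in siMNX1 and 5920.9 ± 312.3 in siNT (SD, n = 3 each). DYNC2H1, the heavy chain of the retrograde motor dynein-2, had 185.5, 333.5 and 165.8 in siMNX1 libraries and 211.8, 124.2 and 145.5 in siNT libraries. Its highest value, in siMNX1 replicate 2, was 2.01 times the lowest of the same group, the widest spread within a group among the members. Its log2 fold change of 0.47 had an interval of -0.13 to 1.07 (limma, adjusted p = 0.39). The light intermediate chain gene DYNC2LI1 was at 321.3 ± 14.0 in siMNX1 and 284.2 ± 27.2 in siNT, and KIF3A and the adaptor gene KIFAP3 had log2 fold changes of 0.08 and 0.05.

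Among the 8 genes of the BBSome, the coat that carries membrane receptors out of the cilium, BBS9 rose and 0 fell. BBS9 (chromosome 7, 33129244 to 33606068, plus strand, GRCh38), a structural subunit, had 191.2, 152.2 and 132.1 normalized counts in siMNX1 libraries, against 75.7, 85.4 and 85.3 in siNT libraries. The siNT libraries lay close together and the siMNX1 libraries spread more widely, all above them. The log2 fold change of 0.93 (SE 0.163, 95% interval 0.56 to 1.29, limma, adjusted p = 0.0172) was the highest of the 54 members, with a ratio of means of 1.93. Per kb of exon BBS9 was the lowest of the 8 subunits in siNT libraries, at 13.3 normalized counts, with BBIP1 next at 16.1 and BBS4 highest at 155.5. The partner subunits did not share this size. BBS1 had 966.5, 918.2 and 898.2 in siMNX1 libraries and 852.2, 839.1 and 813.9 in siNT libraries, apart but not past the threshold (log2 fold change 0.15, limma, adjusted p = 0.233). In GENCODE 29, 53.9% of the BBS1 exon bases are shared with AP002748.4 on the same strand, which was not analysed here, so the BBS1 level is uncertain. BBS2, BBS4, BBS5, BBS7, TTC8 and BBIP1 had log2 fold changes from -0.31 (BBS7) to 0.21 (TTC8) and overlapping groups. BBS5 shares 21.9% of its exon bases with AC093899.2 on the same strand, which was not analysed here. BBIP1 shares 15.8% with PDCD4 on the opposite strand, which averaged 975.3 in siMNX1 and 1277.1 in siNT libraries. The levels of BBS5 and BBIP1 are therefore uncertain too.

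Of the 5 genes that fold or regulate the BBSome, LZTFL1 rose. LZTFL1 (chromosome 3, 45823316 to 45916042, minus strand, GRCh38) encodes a BBSome-binding protein that restrains its entry into the cilium. It had 548.9, 534.2 and 478.1 normalized counts in siMNX1 libraries and 403.8, 392.3 and 375.0 in siNT libraries. The lowest siMNX1 library lay above the highest siNT library, and the log2 fold change was 0.41 (SE 0.084, 95% interval 0.22 to 0.60, limma, adjusted p = 0.0322). The chaperonin-like genes MKKS, BBS10 and BBS12, which help to assemble the BBSome, had log2 fold changes of -0.05, 0.07 and 0.24. MKKS shares 12.7% of its exon bases with AL034430.1 on the same strand, which was not analysed here. ARL6, the GTPase that recruits the BBSome to membranes, was at 193.9 ± 22.4 in siMNX1 and 218.1 ± 38.5 in siNT. ARL3, the GTPase that releases lipidated proteins inside the cilium, had 1058.0, 1094.4 and 1018.9 in siMNX1 libraries and 927.4, 935.6 and 946.4 in siNT libraries. Its groups did not overlap, and the log2 fold change of 0.17 did not pass (limma, adjusted p = 0.156).

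In the transition zone, TMEM231 rose and the other 10 genes gave 0 calls by limma, with 1 of them, TCTN1, at an unadjusted p under 0.05. TMEM231 (chromosome 16, 75536744 to 75556286, minus strand, GRCh38) encodes a membrane protein of the MKS gate complex. It had 195.1, 157.6 and 160.0 normalized counts in siMNX1 libraries, against 97.5, 98.4 and 101.5 in siNT libraries. The siNT libraries were nearly equal, and each siMNX1 library lay well above them. The log2 fold change was 0.77 (SE 0.133, 95% interval 0.47 to 1.07, limma, adjusted p = 0.0158), with a ratio of means of 1.72. TMEM231 shares 2.64% of its exon bases with AC009163.2 and 9.68% with AC025287.1 on the same strand, neither analysed here. TCTN1, another gate component, had 829.3, 845.0 and 908.2 in siMNX1 libraries and 656.2, 756.0 and 795.7 in siNT libraries. These groups did not overlap, and the log2 fold change of 0.23 did not pass (limma, adjusted p = 0.183). CEP290, RPGRIP1L, TMEM67, TCTN2, TCTN3, MKS1, B9D1, B9D2 and CC2D2A had overlapping groups and log2 fold changes of -0.10 (TMEM67) to 0.27 (CC2D2A). TMEM67 had the widest spread of the class, from 112.6 to 220.7 in siNT libraries. The promoter of TMEM231 is shown because the gene rose and its window holds a match to the X-box, a motif bound by RFX factors. A match is a description of letters and shows no binding. The window runs from 250 bases before to 50 bases after the RefSeq start (GRCh38.p14, minus strand, chr16:75556203-75556502), written along the gene with the match in capitals.
TMEM231: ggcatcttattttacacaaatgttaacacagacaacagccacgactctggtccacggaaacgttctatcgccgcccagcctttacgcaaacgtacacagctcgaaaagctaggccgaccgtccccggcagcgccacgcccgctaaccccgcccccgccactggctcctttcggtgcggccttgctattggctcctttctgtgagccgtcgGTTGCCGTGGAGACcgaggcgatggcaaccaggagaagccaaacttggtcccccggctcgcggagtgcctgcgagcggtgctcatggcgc

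Of the 5 Hedgehog genes 1 rose and 0 fell, and the siMNX1 values lay apart from siNT in all 5, above in 2 and below in 3. PTCH1 (chromosome 9, 95442980 to 95517057, minus strand, GRCh38) encodes the receptor that holds SMO inactive, and its transcript is itself a classical target of GLI factors. It had 1589.6, 1662.6 and 1328.9 normalized counts in siMNX1 libraries, against 1151.2, 1068.3 and 1091.8 in siNT libraries. Every siMNX1 library was higher, with replicate 3 nearest to siNT. The log2 fold change was 0.46 (SE 0.085, 95% interval 0.27 to 0.65, limma, adjusted p = 0.0204). PTCH1 shares 4.29% of its exon bases with AL161729.1 on the opposite strand, which averaged 23.2 in siMNX1 and 28.3 in siNT libraries and gave no call.

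GPR161, a ciliary receptor that holds Hedgehog output down through cyclic AMP, had 133.3, 113.9 and 157.2 normalized counts in siMNX1 libraries and 89.5, 95.9 and 68.5 in siNT libraries. The groups did not overlap, and the log2 fold change of 0.67 had an interval of 0.26 to 1.07 that did not reach the adjusted threshold (limma, adjusted p = 0.081). The other 3 genes lay below siNT in every siMNX1 library. GLI2, the main activator among GLI factors, had 19.66, 19.98 and 15.5 normalized counts in siMNX1 libraries and 49.83, 32.49 and 26.09 in siNT libraries, the lowest member per length (2.504 per kb of exon in siMNX1, 4.922 in siNT). Its siNT libraries differed by 1.91 times among themselves, and the log2 fold change of -0.90 did not pass (limma, adjusted p = 0.148). SUFU, which binds GLI proteins and restrains them, had 376.7, 366.2 and 360.4 in siMNX1 libraries and 432.4, 408.8 and 427.0 in siNT libraries (log2 fold change -0.20, limma, adjusted p = 0.206). TULP3, the adaptor that hands GPR161 and other receptors to IFT-A, had 415.8, 384.8 and 466.5 in siMNX1 libraries and 514.1, 484.0 and 496.4 in siNT libraries (log2 fold change -0.24, limma, adjusted p = 0.188). Of all genes tested, 24.0% had groups that did not overlap.

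**Figure D3:**
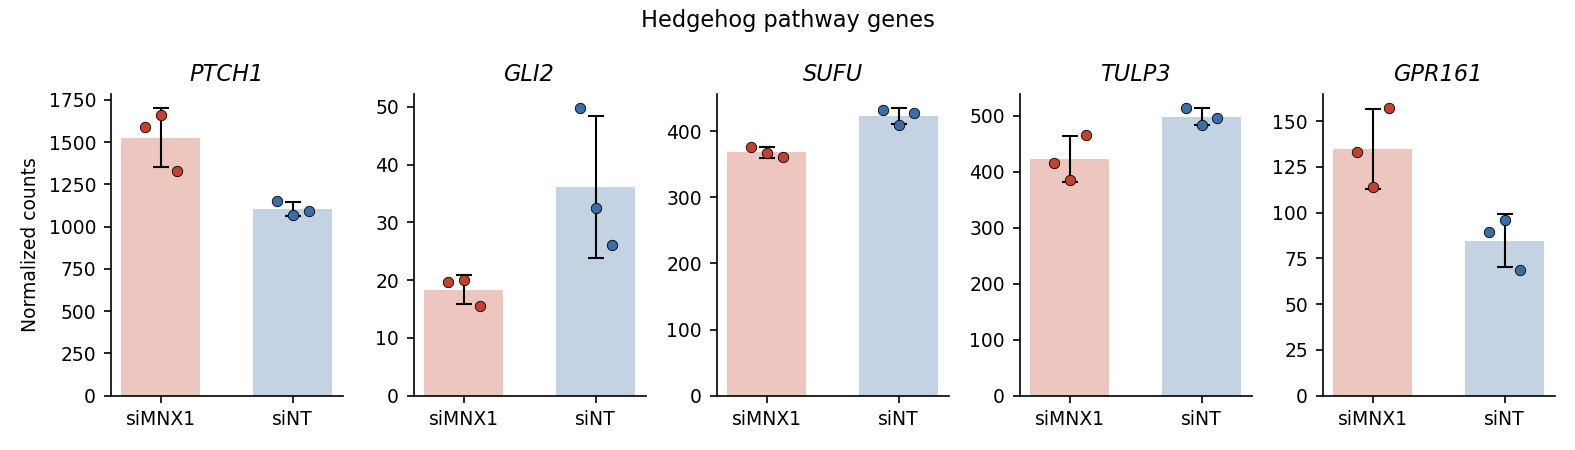
Normalized counts of the 5 measured Hedgehog genes in siMNX1 (red) and siNT (blue) libraries; points are libraries, bars are means and error bars are SD (n = 3 per group). The siMNX1 points of PTCH1 and GPR161 lie above siNT and those of GLI2, SUFU and TULP3 below, without overlap in any panel; PTCH1 alone passed the threshold.

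The promoter of PTCH1 is shown because it held the single match among the members to a GLI-type site, searched as GACCACCCA on both strands. The match starts 172 bases before the RefSeq start, reads on the opposite strand and is in capitals in the window below (RefSeq, GRCh38.p14, minus strand, chr9:95509217-95509516). This RefSeq start lies inside the gene interval given above, whose 5′ end on the minus strand is at 95517057. Of 11517 promoters of tested genes, 0.252% held this site. A match is a description of letters and shows no binding.
PTCH1: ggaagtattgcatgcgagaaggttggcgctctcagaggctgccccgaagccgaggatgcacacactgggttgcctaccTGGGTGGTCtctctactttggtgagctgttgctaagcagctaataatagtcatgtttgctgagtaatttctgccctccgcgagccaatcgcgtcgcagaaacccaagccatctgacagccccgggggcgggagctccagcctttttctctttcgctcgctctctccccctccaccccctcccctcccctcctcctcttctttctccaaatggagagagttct

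**Figure D4:**
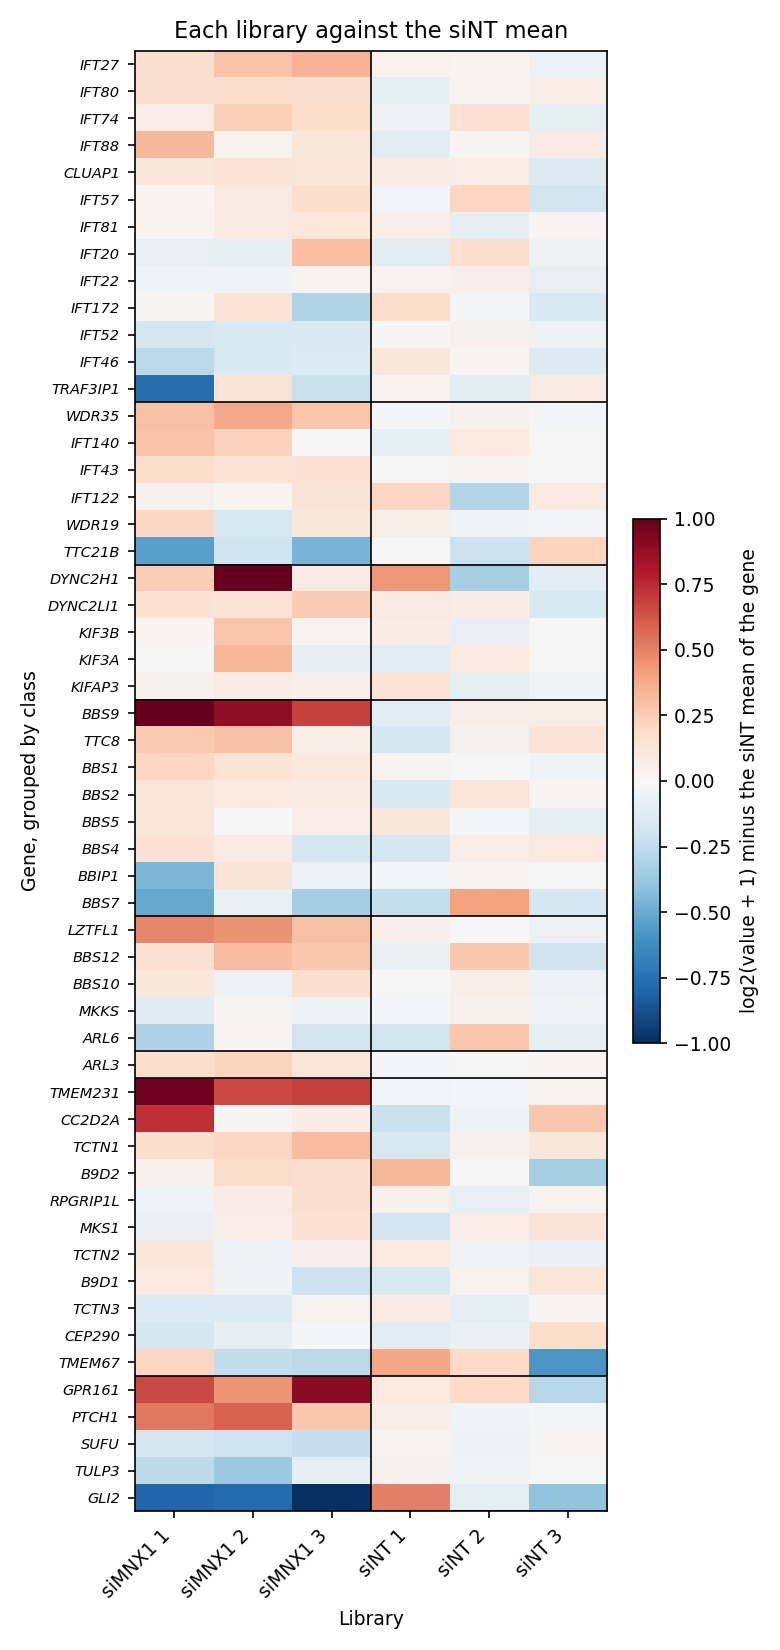
Log2(value + 1) of each member in each library (columns, siMNX1 left and siNT right) minus the siNT mean of that gene; rows are grouped by role, lines separate the roles and colours end at 1 and -1, which 3 values pass (BBS9 in siMNX1 replicate 1, DYNC2H1 in siMNX1 replicate 2, GLI2 in siMNX1 replicate 3). BBS9, TMEM231, LZTFL1, WDR35 and PTCH1 are red in all 3 siMNX1 libraries, while DYNC2H1 is high in siMNX1 replicate 2 and TRAF3IP1 low in siMNX1 replicate 1.

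The members' median deviation from the siNT mean on the log2 scale was 0.11, 0.09 and 0.08 in siMNX1 replicates 1 to 3 and 0.006, 0.02 and -0.02 in siNT replicates 1 to 3. Within a group, the highest over the lowest value of a member had a median of 1.15 in siMNX1 and 1.16 in siNT libraries. The ratio of means was 1.25 for WDR35 and 1.11 for BBS1. Per length the members had a median of 81.8 normalized counts per kb of exon in siNT libraries, where all genes had 84.9.

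Other genes of these pathways were taken from lists. Of 24 measured other transition zone and nephronophthisis genes, 1 rose (4.17%, where 3.32% of all genes were called) and 0 fell. It was INTU, a planar polarity gene needed for cilium assembly, with 278.3, 305.8 and 397.8 normalized counts in siMNX1 libraries and 208.7, 197.9 and 200.7 in siNT libraries (log2 fold change 0.67, limma, adjusted p = 0.0277). The INTU call ended without siMNX1 replicate 3 (adjusted p = 0.0562) and without siNT replicates 1 (0.0726), 2 (0.0965) or 3 (0.113). Of 18 genes of ciliary membrane traffic and signalling, 1 rose (5.56%) and 0 fell, and the gene that rose was ARL2BP, which encodes a partner of the GTPase ARL2. It averaged 1936.0 ± 37.5 in siMNX1 and 1662.9 ± 10.9 in siNT (log2 fold change 0.22, limma, adjusted p = 0.0452). The ARL2BP call ended with any single library left out (adjusted p from 0.0722 to 0.158) and with an equal upper quartile (0.0518) or equal totals (0.0546). It also ended with the replicate block, so ARL2BP passed in 4 of the 13 alternatives. At an unadjusted p under 0.05 by limma, the traffic and signalling list had 2 higher and 4 lower genes. In that list 1 gene lay above siNT in every siMNX1 library and 5 lay below, where all genes gave 12.0% and 12.1%. Its median log2 fold change was -0.0005. The other transition zone list had 2 higher and 2 lower genes at this unadjusted level, and a median of 0.07.

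Limma called 0 of 10 other IFT and dynein-2 subunits, 0 of 26 basal body and assembly genes and 0 of 13 cilium disassembly genes. At an unadjusted p under 0.05 by limma, 9.81% of all genes were higher and 8.56% lower. At this level these lists had 2 higher and 0 lower, 4 higher and 1 lower, and 1 higher and 2 lower genes. Their median log2 fold changes were -0.04, 0.03 and 0.005. The dynein-2 intermediate chain gene DYNC2I2 was at 3406.7 ± 69.6 in siMNX1 and 3484.4 ± 150.9 in siNT, the traffic GTPase gene RAB11A at 4311.7 ± 97.9 in siMNX1 and 4106.1 ± 192.9 in siNT, and the deacetylase gene HDAC6, which acts on cilium tubulin, at 5178.4 ± 467.5 in siMNX1 and 4887.6 ± 121.8 in siNT (SD, n = 3 each).

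Of 34 other Hedgehog genes 24 were measured and the remaining 10 were not analysed here, among them SHH, GLI1 and HHIP. Limma called 0 of the 24, with 1 higher and 0 lower at an unadjusted p under 0.05, and the median log2 fold change was 0.01. PRKACA, the catalytic subunit of the kinase that marks GLI proteins for processing, was at 3281.5 ± 88.7 in siMNX1 and 3452.5 ± 120.8 in siNT (SD, n = 3 each). The ligand gene IHH, named after its values were seen, had 501.6 ± 23.8 in siMNX1 and 469.6 ± 31.9 in siNT, and did not pass (log2 fold change 0.10, limma, adjusted p = 0.589).

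Motile cilia genes serve multiciliated cells and sperm, and 31 of 41 on the list were measured, 13 of them with a mean under 50 normalized counts. Limma called 1 higher (3.23%, where 3.32% of all genes were called) and 0 lower. The median log2 fold change was 0.15, where it was 0.07 over the members and -0.0004 over all genes. The log2 fold change lay above 0 for 26 of the 31 genes, for 37 of the 54 members and for 8381 of the 16792 genes tested. At an unadjusted p under 0.05 by limma, 5 of the 31 were higher and 0 lower, where 9.81% of all genes were higher and 8.56% lower. The called gene was TEKT2, which encodes a tektin of the motile axoneme, with 229.3, 176.9 and 228.1 in siMNX1 libraries and 133.1, 125.9 and 93.0 in siNT libraries (log2 fold change 0.85, limma, adjusted p = 0.0277). The TEKT2 call ended without siMNX1 replicate 1 (adjusted p = 0.101), siMNX1 replicate 3 (0.0831), siNT replicate 2 (0.0704) or siNT replicate 3 (0.102). The summed level of the 31 genes was 7923.6 to 8091.4 in siMNX1 libraries and 7349.5 to 7788.5 in siNT libraries. Their part in the results of the members was not tested.

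**Figure D5:**
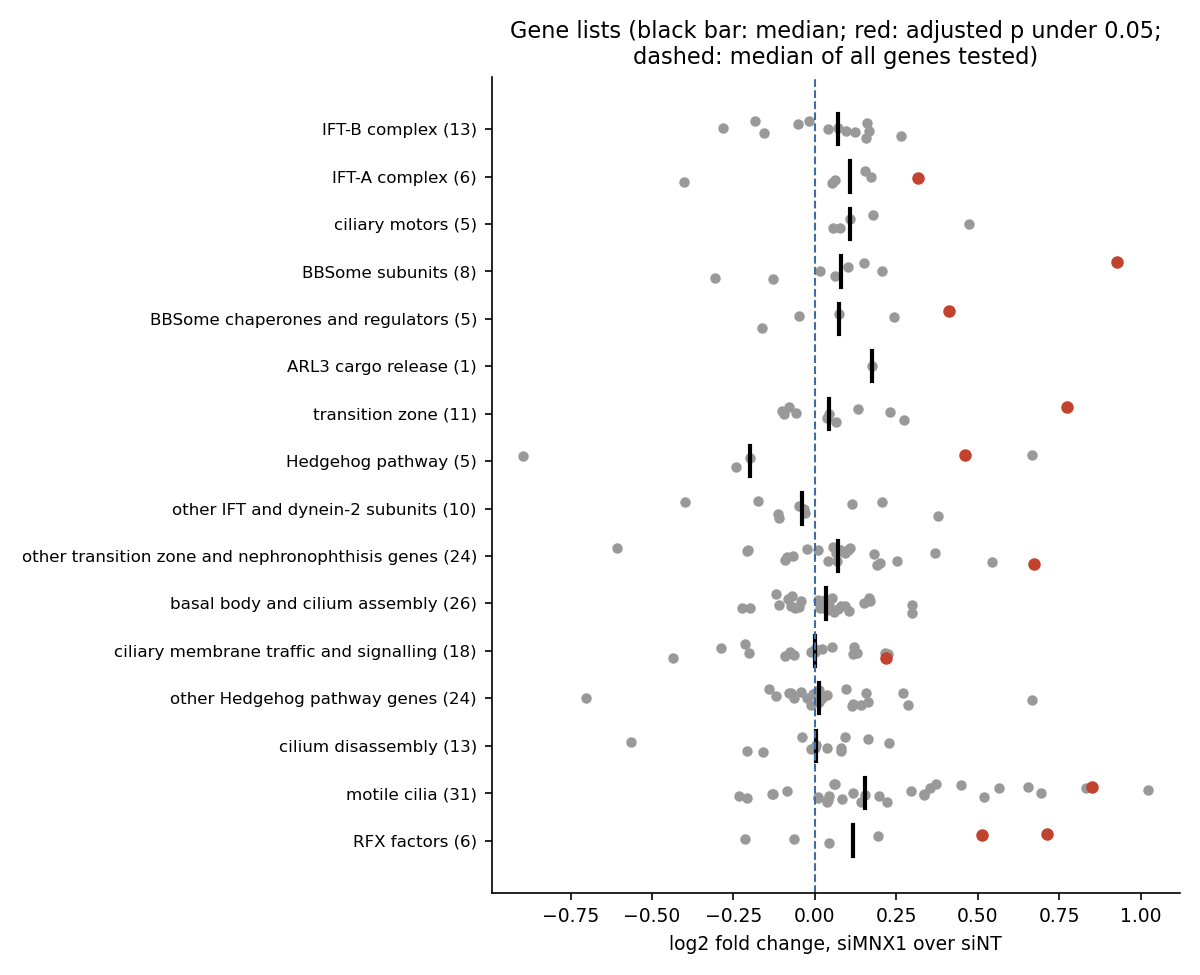
Log2 fold change (siMNX1 over siNT) of each measured gene by list, the 8 roles of the members above and 8 other lists below, with the number measured in brackets; black bars are medians, red marks an adjusted p under 0.05 and the dashed line is the median of all genes tested (-0.0004). Over the members' roles medians lie between -0.20 for the Hedgehog pathway (0.13 with a minimum mean of 50, which leaves out GLI2) and 0.17 for ARL3, which is a single gene, and each list holds 0 or 1 red points except the RFX factors, with 2 of 6.

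RFX factors bind the X-box, a paired motif found before many cilium genes in animals from worms to mammals. Of 6 measured RFX genes 2 rose (33.3%, where 3.32% of all genes were called) and 0 fell. The list was chosen with earlier results of these data known. At an unadjusted p under 0.05 by limma, 2 were higher and 1, RFX5, was lower. RFX5 averaged 536.7 in siMNX1 and 623.3 in siNT libraries, without overlap (log2 fold change -0.22, limma, adjusted p = 0.183). RFX3 rose to 1033.6 ± 114.1 normalized counts in siMNX1, against 722.8 ± 63.9 in siNT (SD, n = 3 each; log2 fold change 0.51, limma, adjusted p = 0.0216), and RFX6 to 4565.4 ± 81.1 in siMNX1, against 2783.6 ± 14.8 in siNT (log2 fold change 0.71, limma, adjusted p = 4.1e-05). The RFX3 call ended without siMNX1 replicate 1 (adjusted p = 0.0691), siNT replicate 2 (0.0826) or siNT replicate 3 (0.0727). Promoter windows were found for 49 of the 54 members, and BBS9, IFT22, TCTN2, TMEM67 and WDR35 had no entry. A loose X-box, GTNNCCNNNGNNAC on both strands, was in 9 of the 49 windows (18.4%) and in 5.44% of 11517 promoters of tested genes. The 9 matches are shown to compare their letters, written 5′ to 3′ on the strand of the match, with the fixed letters of the motif in capitals (RefSeq, GRCh38.p14).
TMEM231: GTtgCCgtgGagAC
B9D1: GTtaCCttgGctAC
B9D2: GTtgCCccaGcaAC
ARL6: GTtgCCaagGgaAC
BBS7: GTttCCacaGagAC
DYNC2H1: GTcgCCataGcgAC
IFT57: GTttCCctgGtgAC
IFT80: GTcaCCataGtgAC
WDR19: GTctCCtggGtgAC

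Of these 9 genes TMEM231 rose and 0 fell, with a median log2 fold change of 0.10 and a range of -0.31 (BBS7) to 0.77 (TMEM231). The 40 members with a window and no match had a median of 0.07, with 2 higher (LZTFL1 and PTCH1) and 0 lower. The match of TMEM231 begins 40 bases before the start, those of ARL6 and IFT57 begin 24 and 30 bases before it, and that of BBS7 lies 173 bases before it on the opposite strand. A homeodomain core, TAATTA, searched because MNX1 is a homeodomain protein and chosen after the members' values were seen, was in the window of 1 member (GPR161) of 49 (2.04%) and in 1.99% of promoters of tested genes. Members had a median GC content of 61.7% in these windows, where promoters of tested genes had 65.3%.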

How the data were processed

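RNA was measured in 6 libraries. Per the labels' protocols, 5 ng of total RNA went into each Ovation Solo library, with ribosomal RNA removed after amplification, while the molecule field says polyA RNA. The authors deposited 1 table of 16792 genes whose unit is a normalized count, a signal with decimals. The tools named, per the submitters' processing notes and without roles, were DESeq, DESeq2 1.26.0, RSEM 1.3.1, STAR 2.7.6a and R 3.6.3, with build GRCh38. For annotation release, gene filter and strand handling the answer is: not given in the sources used here, so overlapping genes on opposite strands cannot be told apart. Of values under 10, 25.8% to 47.4% lay within 0.02 reads of a whole step per library, so whole reads were not recovered, depth is unknown and no count model was fitted.

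Values were analysed as log2(value + 1), a scale that understates changes of low genes, with limma 3.58.1 (R 4.3.3), a variance trend and Benjamini-Hochberg adjustment over all genes (threshold 0.05, two-sided). The lowest mean was 6.57, and no filter was applied. Members and lists were chosen with earlier results of these data known. All 54 measured members are named; those with an unadjusted p under 0.05 are given per library. In each other list the called genes, or otherwise the 1 with the highest mean, are named, and markers are given as sums. Levels per length use the exon union of GENCODE 29, which may not be the authors' annotation. Promoter windows came from RefSeq (GRCh38.p14). The 13 alternatives were pseudocounts of 0.5 and 5, a minimum mean of 50, 2 scalings, robust variances, a block for replicate number and each library left out. The procedure was tested on simulated data. Python 3.11.15 with pandas 2.3.3, numpy 2.4.6, scipy 1.17.1 and matplotlib 3.10.9 was used.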

Additional observations from a re-analysis of the deposited data

How the results depend on the processing

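The 5 members past the threshold passed under pseudocounts of 0.5 and 5, a minimum mean of 50 (which removed GLI2), equal totals of non-mitochondrial genes, an equal upper quartile and the robust variance model, and 0 members were lower in any of the 13 alternatives. With 1 library left out, 0 to 4 members were higher, with 133 to 257 genes higher and 64 to 179 lower in the whole table, where 335 and 223 were found with all libraries. These sets have fewer samples. The median log2 fold change, all members included, was 0.0669 to 0.0977 over them, where 0.0729 was found with all libraries. The Hedgehog median of -0.20 became 0.13 with the minimum mean of 50, since GLI2 was gone and 4 genes were left. Same-numbered libraries did not deviate together (correlations of -0.0135, -0.00855 and -0.0377), so the numbers were not taken to pair the libraries. With a replicate block 162 genes were higher and 75 lower, and 1 member, PTCH1, passed (adjusted p = 0.0433 by limma). The adjusted p with the block was 0.0769 for WDR35, 0.0565 for BBS9, 0.0722 for LZTFL1 and 0.0535 for TMEM231, and among other named genes 0.0636 for INTU, 0.132 for ARL2BP, 0.0677 for TEKT2 and 0.0732 for RFX3. The cause was not tested. The sign of the log2 fold change turned in at least 1 alternative for 13 members, and 0 of these had an unadjusted p under 0.05. The reads behind each value are unknown, so no counting interval was given for low genes such as GLI2 and CC2D2A.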
